A study of Danio rerio with 6 samples.

Results

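The results concern 9 MAP kinase genes of the zebrafish, mapk3, mapk8a, mapk8b, mapk9, mapk11, mapk12a, mapk12b, mapk14a and mapk14b, out of 31794 named genes, and the transcripts measured at their 9 loci. Members were the 31 transcripts that carry one of these gene names, and the 14 transcripts without a gene name that the assembler had placed in the same loci were kept apart from them, giving 45 of 77316 transcripts in all. The mutant group comprised 3 pools of zrsr2 hg129/hg129 bodies (clutches 3, 4 and 7) and the WT group 3 pools of wild-type bodies (clutches 12, 13 and 15). Each pool held 10 embryos at 3 days post fertilization (dpf), all of the Tab5 strain and all without heads. The hg129 allele is a CRISPR/Cas9 frameshift carried through the germline of 1 line, so every cell of a mutant embryo carried it. According to the study's methods, the mutants came from crosses of heterozygous carriers and the WT embryos from crosses of wild-type siblings, and the mutant pools are titled by the heterozygous clutch. No clutch gave both genotypes. The highest RNA integrity number among mutant pools was lower than the lowest among WT pools. Genotype, clutch, cross and RNA integrity therefore cannot be told apart. Replicates are pools from separate clutches, so the spread between them includes differences between clutches.

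MAP kinases are the last kinases of a cascade in which a MAP kinase kinase kinase phosphorylates a MAP kinase kinase, which in turn phosphorylates the MAP kinase. The ERK branch mainly carries growth factor signals, and the JNK and p38 branches mainly carry signals of stress and inflammation, although all of them also act in normal development. Zebrafish retain a pair of copies, named a and b, of several of these genes. Zrsr2 recognizes the end of minor introns, a rare class of introns that are removed by their own spliceosome, and genes of the JNK and p38 branches are among the vertebrate genes that contain such introns. The question addressed here is which transcripts of each MAP kinase gene were present in mutant and WT bodies and at what level.

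Levels are given as FPKM, the number of fragments scaled to transcript length and to the mapped fragments of the library, as the authors' assembly estimated them. Values of single pools are given for mutant clutches 3, 4 and 7 and then for WT clutches 12, 13 and 15. Means are followed by the SD over 3 pools. The level of a gene is the sum over its named transcripts and the level of a locus is the sum over named and unnamed transcripts. Transcripts without a name carry an identifier beginning with MSTRG and were built by StringTie from the reads of this study. Since the tables give the ends, number of exons and length of a transcript but not the position of its exons, a longer transcript can be described but the piece that lengthens it cannot be located. Where transcripts differ in their ends, a comparison of their lengths assumes that the differing bases lie in exons. Log2 fold changes are mutant over WT after scaling between pools, with a pseudocount of 0.1 FPKM, and were tested with limma and Benjamini-Hochberg adjustment over all features of the same kind. A feature was called at an adjusted p below 0.05 if its log2 fold change was also at least 1 in either direction. An exact permutation test of 3 pools against 3 cannot give a p below 0.1.

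The libraries were of similar size, with 8.85 to 9.17 gigabases of transcript coverage in mutant pools and 7.50 to 9.26 gigabases in WT pools. Unnamed transcripts took 26.0 to 29.2% of these bases in mutant pools and 23.0 to 26.1% in WT pools. The mutated gene itself, zrsr2, had 0.513, 0.793 and 1.06 FPKM in mutant pools, against 1.38, 1.50 and 1.39 FPKM in WT pools, a log2 fold change of -0.62 (SE 0.23, limma with Benjamini-Hochberg adjustment, adjusted p = 0.173). Muscle, skin and blood markers were abundant in both groups, with a summed FPKM of 34451 to 40361 in mutant pools and 28193 to 29840 in WT pools. All 9 of these markers had a positive log2 fold change after scaling, but not all rose in the deposited values. There the keratin gene krt5 averaged 86.5 FPKM in mutant pools and 98.6 FPKM in WT pools. Another keratin gene, krt4, was the 1 called higher (1.22, limma with Benjamini-Hochberg adjustment, adjusted p = 0.036), beside 0.887% of all genes tested. Markers of eye and lens stayed below 1 FPKM in sum in every pool, at 0.288 to 0.502 in mutant and 0.383 to 0.837 in WT pools. Neural markers summed to 112 to 121 FPKM in mutant pools and 132 to 146 FPKM in WT pools, and none of the 5 was called. All 5 markers of the exocrine pancreas, a list chosen with earlier results of these data known, were called lower, beside 1.91% of all genes tested. Their summed FPKM was 17.1 to 50.7 in mutant pools and 515 to 672 in WT pools. The part of these differences in the results below was not tested, and in RNA of whole bodies fewer cells of a type and less RNA per cell cannot be told apart.

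No MAP kinase gene passed the test on its named transcripts, whereas 1 locus, mapk8a, rose. In the fit of named genes 565 of 20188 genes were called, or 2.8%, and 0 of the 9 MAP kinase genes. Of these 9 genes, mapk8b, mapk9 and mapk12a had an unadjusted p under 0.05, as did 22.9% of all genes tested, and no alternative setting called more than 1 of the 9. In the fit of whole loci 4.57% of 20397 loci were called, against 1 of the 9 MAP kinase loci. The loci of mapk8b and mapk14a also had an adjusted p below 0.05 but stayed under the fold threshold. Unnamed transcripts, found at the loci of mapk8a, mapk9, mapk11 and mapk14a, were called at 1 of these 4 loci, against 2.12% of 6079 loci tested. With so few members these shares cannot be read as a difference from other genes.

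**Figure D1:**
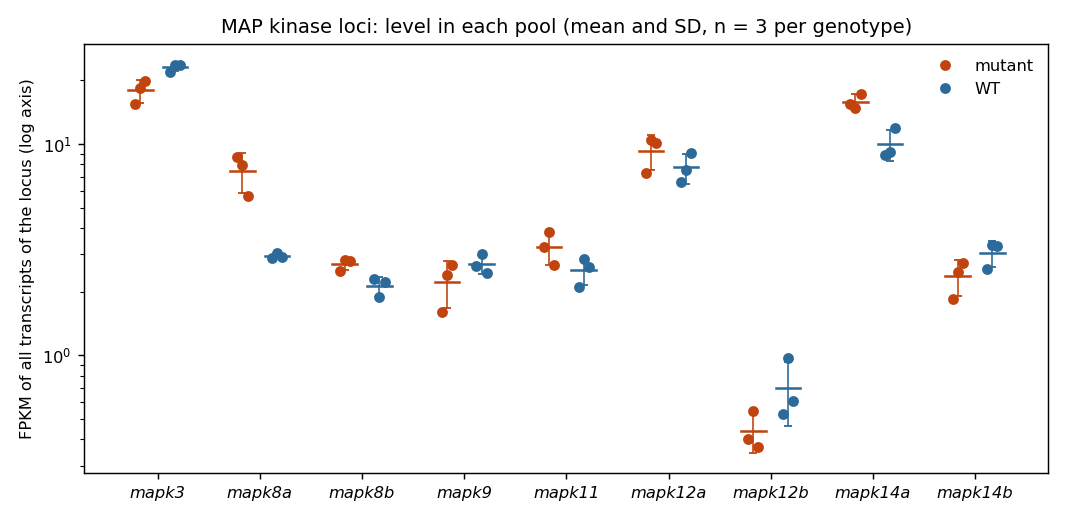
FPKM of all transcripts of each MAP kinase locus (vertical axis, logarithmic) in 3 mutant pools (red) and 3 WT pools (blue), with the mean and SD of each genotype. The mutant pools of mapk8a, at 5.68 to 8.70 FPKM, sit above the WT pools, at 2.89 to 3.06 FPKM, and mapk3 and mapk14a are the most abundant loci in both genotypes.

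The order of the loci by level was led by mapk3 and mapk14a in both genotypes. In mutant pools mapk3 averaged 17.9 ± 2.25 FPKM and mapk14a 15.9 ± 1.29 FPKM, and their ranges overlapped. They were followed by mapk12a at 9.28 ± 1.76 and mapk8a at 7.46 ± 1.58 FPKM, which also overlapped. In mutant pools mapk11 (3.26 FPKM), mapk8b (2.70), mapk14b (2.36) and mapk9 (2.23) formed a group in which each overlapped the next. In WT pools mapk3 stood alone at 23.1 ± 0.962 FPKM, and mapk14a at 9.99 ± 1.68 overlapped mapk12a at 7.75 ± 1.27 FPKM. There, mapk14b (3.05 FPKM), mapk8a (2.96), mapk9 (2.71), mapk11 (2.52) and mapk8b (2.13) formed the overlapping group. Thus mapk8a, with all its transcripts counted, lay above this group in mutant pools and within it in WT pools. This placing depends on its 2-exon unnamed transcripts, described below. Without them mapk8a had 3.04 to 4.60 FPKM in mutant pools, which overlapped mapk11 at 2.68 to 3.84 FPKM. In WT pools it then had 1.43 to 1.55 FPKM, below mapk8b at 1.88 to 2.29 FPKM. The least abundant locus was mapk12b, with 0.438 ± 0.0950 FPKM in mutant pools and 0.699 ± 0.235 FPKM in WT pools.

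mapk3 encodes Erk1, a kinase of the growth factor branch. It lies on the reverse strand of chromosome 3 (26211974 to 26222381, GRCz11) and has 2 transcripts, both named. Their sum was 15.5, 18.3 and 20.0 FPKM in mutant pools, against 22.0, 23.6 and 23.7 FPKM in WT pools. Every mutant pool lay below every WT pool in the deposited values, but after scaling between pools the ranges overlapped, with 18.2 to 20.9 in mutant and 20.8 to 21.9 in WT pools. The log2 fold change was -0.15 (SE 0.11, limma with Benjamini-Hochberg adjustment, adjusted p = 0.447).

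A minor transcript of mapk3 took a larger share of the locus in every mutant pool than in any WT pool. ENSDART00000134342, with 3 exons and 1032 nt, starts where the 9-exon transcript ENSDART00000103746 (2122 nt) starts and ends 7470 bases before it. It had 0.499, 0.523 and 0.547 FPKM in mutant pools, against 0, 0 and 0.0259 FPKM in WT pools. It therefore took 2.94 ± 0.249% of the FPKM of the locus in mutant pools and 0.0365 ± 0.0632% in WT pools, and the groups did not overlap. The 9-exon transcript took the remainder, 97.1% in mutant pools and 100% in WT pools when rounded. It had 17.4 ± 2.23 FPKM in mutant pools and 23.1 ± 0.954 FPKM in WT pools, so the lower sum in the deposited values lay in this transcript. In the fit of transcript shares, the log2 ratio of a transcript to the rest of its locus, 206 of 27160 transcripts were called, or 0.758%, and 1 of the 33 MAP kinase transcripts tested. That transcript was ENSDART00000103746, at a log2 ratio of -2.82 (SE 0.19, limma with Benjamini-Hochberg adjustment, adjusted p = 0.00941). For ENSDART00000134342 the same ratio with its sign turned, 2.82, had an SE of 0.45 and an adjusted p of 0.0819 by limma with Benjamini-Hochberg adjustment, because the spread assumed by the fit depends on the mean of the ratio. Since both tests concern 1 ratio, the call depends on which transcript is placed on top. Without the mean trend, a setting chosen after seeing the data, the short transcript was called as well (adjusted p = 0.0296, limma), and so it was when every transcript above 0 FPKM was tested (adjusted p = 0.0104, limma). The call of the 9-exon transcript was lost with a pseudocount of 1 FPKM (log2 ratio -0.82, adjusted p = 0.0654, limma), without WT clutch 12 (-2.78, adjusted p = 0.0672) and without WT clutch 13 (-2.74, adjusted p = 0.0528). With a pseudocount of 0.01 FPKM the log2 ratio was -5.46, so its size depends on the pseudocount. The short transcript was at or near 0 FPKM in WT pools, where the pseudocount largely sets the ratio. It reached the filter of 0.1 FPKM only through the mutant pools, so the direction of its test was set by the filter.

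**Figure D2:**
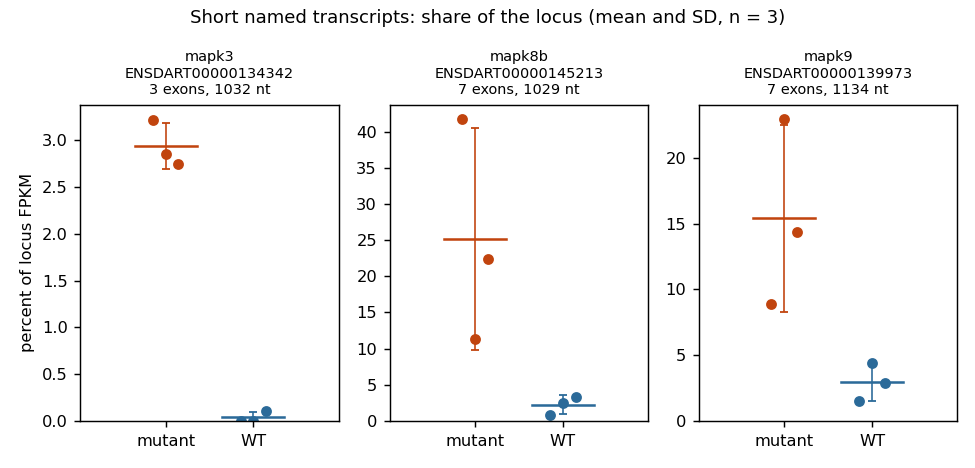
Share of the FPKM of the locus (vertical axis, percent) taken by a short named transcript of mapk3, mapk8b and mapk9 in 3 mutant pools (left) and 3 WT pools (right), with the mean and SD. In each panel all mutant pools lie above all WT pools, with means of 2.94, 25.2 and 15.4% in mutant pools and 0.0365, 2.24 and 2.93% in WT pools. The transcripts were set side by side after their values were seen, and none of their shares was called. Each reached the filter of 0.1 FPKM only through the mutant pools.

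mapk8a, mapk8b and mapk9 encode the Jnk kinases, which phosphorylate Jun and are activated by the kinases Map2k4 and Map2k7. The mapk8a gene lies on the reverse strand of chromosome 13 (31147518 to 31167461), and its locus, with 7 named and 4 unnamed transcripts, extends over 31144919 to 31191747. The locus had 8.70, 7.99 and 5.68 FPKM in mutant pools, against 2.89, 3.06 and 2.93 FPKM in WT pools, which is 2.52-fold higher in the deposited values. The log2 fold change was 1.50 (SE 0.19, limma with Benjamini-Hochberg adjustment, adjusted p = 0.0045), and this call held in every alternative, including without each pool.

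The rise of the mapk8a locus was found in the unnamed transcripts. These had 7.00, 7.17 and 5.43 FPKM in mutant pools, against 2.03, 2.09 and 1.72 FPKM in WT pools. They rose 3.36-fold in the deposited values, with a log2 fold change of 1.91 (SE 0.20, limma with Benjamini-Hochberg adjustment, adjusted p = 0.0107). The named transcripts had 1.70, 0.822 and 0.243 FPKM in mutant pools, against 0.864, 0.971 and 1.21 FPKM in WT pools, and the mutant pools spread on both sides of the WT pools (log2 fold change -0.21, SE 0.61, limma with Benjamini-Hochberg adjustment, adjusted p = 0.861). Without mutant clutch 7 this value turned to 0.45. Unnamed transcripts made up 80.4, 89.7 and 95.7% of the locus in mutant pools and 70.2, 68.3 and 58.7% in WT pools, without overlap (p = 0.1 by a two-sided exact permutation test, its lowest possible value). The ratio of unnamed to named transcripts at mapk8a had a log2 difference of 2.12 (SE 0.59, limma with Benjamini-Hochberg adjustment, adjusted p = 0.252). In that fit 0.743% of 5785 loci were called, and 0 of the 4 MAP kinase loci, of which mapk8a, mapk9 and mapk11 had an unadjusted p under 0.05, as did 11.7% of all loci tested.

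The unnamed transcripts of mapk8a were of different kinds. MSTRG.4142.2 has 11 exons and 5910 nt, starts with the 12-exon ENSDART00000139591 (2694 nt) and ends 3018 bases beyond it. It had 0.718, 2.29 and 3.04 FPKM in mutant pools, against 0.565, 0.478 and 0.345 FPKM in WT pools, so that the mutant pools lay above the WT pools but differed widely among themselves. Apart from its longer end, it is 198 nt longer than ENSDART00000139591 with 1 exon fewer. MSTRG.4142.3 has the same ends as MSTRG.4142.2, 12 exons and 225 nt less, and had 0.622, 0 and 1.32 FPKM in mutant pools, against 0 FPKM in every WT pool. The transcripts MSTRG.4142.1 (1935 nt) and MSTRG.4142.4 (832 nt) have 2 exons each and begin 24286 bases upstream of the first base of ENSDART00000139591. Both run antisense to several ptpn20 transcripts on the forward strand, and whether strand was used in the assembly is not given in the sources used here. Their sum was 5.66, 4.88 and 1.08 FPKM in mutant pools, against 1.47, 1.61 and 1.37 FPKM in WT pools, and mutant clutch 7 lay below the WT pools. Without this pair, which was set aside after its values were seen, the mapk8a locus still had 3.04, 3.11 and 4.60 FPKM in mutant pools, against 1.43, 1.45 and 1.55 FPKM in WT pools, 2.43-fold higher in the deposited values, for which no test was made.

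Among the named transcripts of mapk8a, ENSDART00000139591 had 0.341, 0.192 and 0 FPKM in mutant pools, against 0.426, 0.594 and 0.387 FPKM in WT pools. Its share of the locus was 2.11 ± 1.98% in mutant pools and 15.8 ± 3.22% in WT pools, with all mutant pools below all WT pools. The log2 ratio of -2.81 (SE 0.57, limma with Benjamini-Hochberg adjustment, adjusted p = 0.154) was called only with a pseudocount of 1 FPKM (-1.68, adjusted p = 0.0328). ENSDART00000132129, with the same exon number and a longer end, took 3.97% in mutant pools and 9.67% in WT pools (log2 ratio -1.46, SE 0.50, limma with Benjamini-Hochberg adjustment, adjusted p = 0.416). A share is relative to the rest of the locus, which rose. The FPKM of ENSDART00000132129, at 0.188, 0.465 and 0.223 in mutant pools and 0.330, 0.241 and 0.285 in WT pools, overlapped. The 2 named transcripts ENSDART00000190640 and ENSDART00000192002, which share ends, exon number and length, were above 0 only in mutant clutch 3.

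mapk8b, the paralogue of mapk8a, lies on the reverse strand of chromosome 12 (2505519 to 2522487) and has 4 named transcripts and no unnamed one. It had 2.51, 2.81 and 2.79 FPKM in mutant pools, against 2.29, 1.88 and 2.23 FPKM in WT pools. All mutant pools lay above all WT pools, by a log2 fold change of 0.55. In the fit of named genes this had an SE of 0.14 and an adjusted p of 0.0807, and in the fit of loci an SE of 0.13 and an adjusted p of 0.0427 (limma with Benjamini-Hochberg adjustment), so that it was called in neither. The adjusted p of the locus was above 0.05 without each single pool (0.0696 to 0.143, limma) and without scaling between pools (0.156). It was also above 0.05 when every locus above 0 FPKM was tested (0.0580, limma) and without the mean trend (0.0557, limma).

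A shorter transcript of mapk8b, ENSDART00000145213 with 7 exons and 1029 nt, had 1.05, 0.320 and 0.624 FPKM in mutant pools, against 0.0195, 0.0478 and 0.0744 FPKM in WT pools. It starts with the 12-exon ENSDART00000022471 (2059 nt) and ends 6360 bases before it. Its share of the locus was 41.7, 11.4 and 22.4% in mutant pools and 0.850, 2.54 and 3.34% in WT pools. The groups did not overlap, but the mutant pools were widely spread (log2 ratio 2.25, SE 0.66, limma with Benjamini-Hochberg adjustment, adjusted p = 0.345). ENSDART00000145213 reached the filter of 0.1 FPKM only through the mutant pools, so the direction of this test was set by the filter. ENSDART00000022471 itself had 1.33, 1.89 and 2.08 FPKM in mutant pools, against 1.65, 1.78 and 1.28 FPKM in WT pools, and the groups overlapped. ENSDART00000128677, an 11-exon transcript, varied within WT, with 0.0241, 0.0618 and 0.0743 FPKM in mutant pools and 0.608, 0.0165 and 0.843 FPKM in WT pools.

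mapk9 encodes Jnk2 and lies on the reverse strand of chromosome 21 (32349190 to 32374656). Its 2 named transcripts together had 0.906, 0.572 and 0.407 FPKM in mutant pools, against 1.97, 1.68 and 1.97 FPKM in WT pools. All mutant pools lay below all WT pools, with a difference of -66.5% between the means of the deposited values, but the log2 fold change of -1.29 was not called (SE 0.30, limma with Benjamini-Hochberg adjustment, adjusted p = 0.0723). It was called without scaling between pools (-1.49, adjusted p = 0.0317) and without mutant clutch 3 (-1.61, adjusted p = 0.0277), the mutant pool nearest to WT.

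The locus as a whole did not show this difference. The single unnamed transcript, MSTRG.12700.1, with 13 exons and 5394 nt, starts with the 12-exon ENSDART00000112550 (1758 nt) and ends 3656 bases beyond it. It had 0.704, 1.82 and 2.28 FPKM in mutant pools, against 0.683, 1.34 and 0.479 FPKM in WT pools, and the groups overlapped (log2 fold change 1.03, SE 0.52, limma with Benjamini-Hochberg adjustment, adjusted p = 0.366). Named and unnamed transcripts together had 1.61, 2.39 and 2.68 FPKM in mutant pools, against 2.65, 3.03 and 2.45 FPKM in WT pools, a log2 fold change of -0.08 (SE 0.18, limma with Benjamini-Hochberg adjustment, adjusted p = 0.793) that turned to 0.068 without mutant clutch 3. The unnamed share was 43.7, 76.1 and 84.8% in mutant pools and 25.7, 44.4 and 19.6% in WT pools (p = 0.2 by a two-sided exact permutation test). The extended end of MSTRG.12700.1 lies in part opposite si:ch211-247j9.1 on the forward strand, and reads of the 2 strands cannot be told apart here if strand was not used.

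The 2 named transcripts of mapk9 differed in direction. ENSDART00000112550 had 0.763, 0.0226 and 0.0211 FPKM in mutant pools, against 1.93, 1.55 and 1.90 FPKM in WT pools. Its share was 47.4, 0.947 and 0.787% in mutant pools and 72.8, 51.2 and 77.5% in WT pools, so that it was close to 0 in clutches 4 and 7 but not in mutant clutch 3 (log2 ratio -4.01, SE 1.30, limma with Benjamini-Hochberg adjustment, adjusted p = 0.390). The shorter ENSDART00000139973, with 7 exons and 1134 nt, begins at the same base and ends 5392 bases earlier, and had 0.143, 0.549 and 0.386 FPKM in mutant pools, against 0.0399, 0.133 and 0.0709 FPKM in WT pools. It took 15.4 ± 7.10% of the locus in mutant pools and 2.93 ± 1.44% in WT pools, without overlap (log2 ratio 1.66, SE 0.49, limma with Benjamini-Hochberg adjustment, adjusted p = 0.351). In mapk3, mapk8b and mapk9 alike, a transcript that shares the first base of the main transcript and ends early thus took a larger share in every mutant pool than in any WT pool, although none of these 3 shares was called, each of these transcripts reached the filter of 0.1 FPKM only through the mutant pools, and the genes were set side by side after their values were seen. Of the other named transcripts that begin at the same base and end early, ENSDART00000134640 and ENSDART00000146250 of mapk8a and ENSDART00000150724 of mapk11 stayed below 0.1 FPKM and did not differ in this way, with shares that overlapped or were 0 throughout. ENSDART00000190640 and ENSDART00000192002 of mapk8a, which end 300 bases early, were above 0 only in mutant clutch 3 (0.713 and 0.110 FPKM), and their shares also overlapped.

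**Figure D3:**
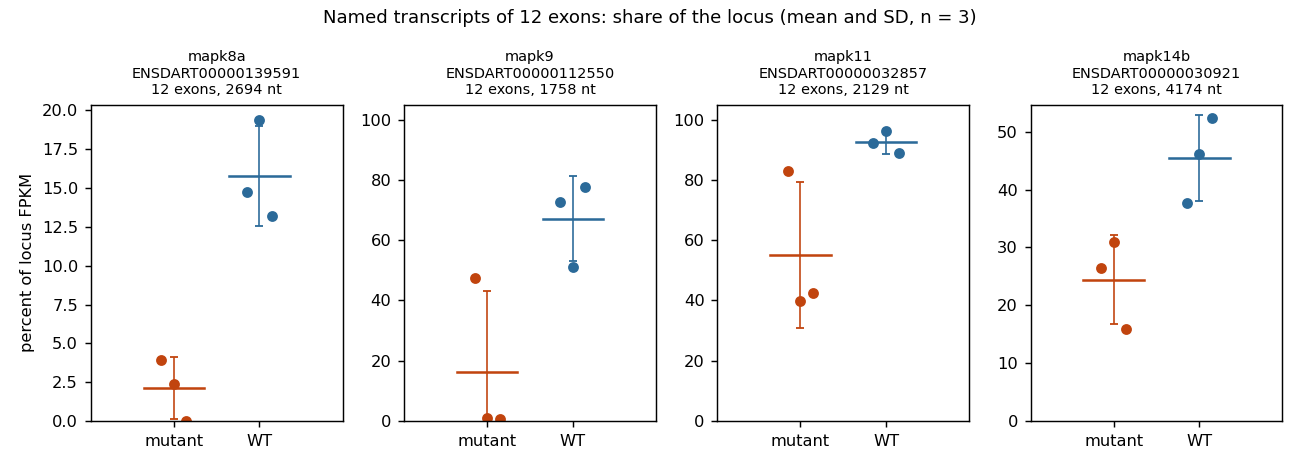
Share of the FPKM of the locus (vertical axis, percent) taken by a 12-exon named transcript of mapk8a, mapk9, mapk11 and mapk14b in 3 mutant pools (left) and 3 WT pools (right), with the mean and SD. In each panel all mutant pools lie below all WT pools, with means of 2.11, 16.4, 55.0 and 24.4% in mutant pools and 15.8, 67.2, 92.5 and 45.4% in WT pools, but they were chosen after their values were seen, and the other main 12-exon transcript of mapk14b had the higher share in mutant pools while those of mapk8b and mapk14a overlapped. Reads shared by the main 12-exon transcripts of mapk14b are divided between them by estimation.

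mapk11, mapk12a, mapk12b, mapk14a and mapk14b encode the p38 kinases, which are activated by the kinases Map2k3 and Map2k6. mapk11, which encodes p38 beta, lies on the forward strand of chromosome 4 (5506946 to 5522437). Its 5 named transcripts together had 3.00, 1.76 and 2.27 FPKM in mutant pools, against 2.11, 2.82 and 2.59 FPKM in WT pools, and the groups overlapped (log2 fold change 0.10, SE 0.26, limma with Benjamini-Hochberg adjustment, adjusted p = 0.849). The sign of this value turned without scaling (-0.12), without mutant clutch 3 (-0.15) and without WT clutch 12 (-0.0054). The locus had 3.26, 3.84 and 2.68 FPKM in mutant pools, against 2.11, 2.84 and 2.61 FPKM in WT pools (log2 fold change 0.57, SE 0.18, limma with Benjamini-Hochberg adjustment, adjusted p = 0.0813).

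The unnamed transcript of mapk11 was nearly restricted to mutant pools. MSTRG.17706.1 has 12 exons and 2302 nt, the same exon number as ENSDART00000032857 (2129 nt), and is 167 nt longer within the same ends when its 6 additional bases at the start are set aside. It had 0.260, 2.08 and 0.411 FPKM in mutant pools, against 0, 0.0206 and 0.0240 FPKM in WT pools. The groups did not overlap, but mutant clutch 4 was far above the other mutant pools, and the log2 fold change of 2.79 was not called (SE 0.81, limma with Benjamini-Hochberg adjustment, adjusted p = 0.172). Its size depends on the pseudocount, being 0.83 with 1 FPKM and 4.99 with 0.01 FPKM. MSTRG.17706.1 reached the filter of 0.1 FPKM only through the mutant pools, so the direction of this test was set by the filter. ENSDART00000032857 had 2.70, 1.52 and 1.14 FPKM in mutant pools, against 1.95, 2.74 and 2.32 FPKM in WT pools. Its share was 82.9, 39.7 and 42.5% in mutant pools and 92.3, 96.3 and 88.9% in WT pools (log2 ratio -2.71, SE 0.82, limma with Benjamini-Hochberg adjustment, adjusted p = 0.363). A named 11-exon transcript, ENSDART00000160222 (2200 nt), begins 106 bases after ENSDART00000032857, ends at the same base and has 1 exon fewer. It is 177 nt longer if those 106 bases are set aside. ENSDART00000160222 had 0.207, 0 and 1.08 FPKM in mutant pools, against 0.112, 0.0599 and 0 FPKM in WT pools. Beside ENSDART00000032857, the largest share was therefore that of MSTRG.17706.1 in mutant clutch 4 (54.1%) and of ENSDART00000160222 in mutant clutch 7 (40.3%). In clutch 7 MSTRG.17706.1 also took 15.4%. In mutant clutch 3 both were present, MSTRG.17706.1 at 7.99% and ENSDART00000160222 at 6.35%.

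mapk12a and mapk12b encode p38 gamma, known in mammals for its high level in skeletal muscle. mapk12a, on the reverse strand of chromosome 18 (14844669 to 14860435), has 1 transcript of 12 exons, which had 7.26, 10.5 and 10.1 FPKM in mutant pools, against 6.58, 7.56 and 9.09 FPKM in WT pools. The deposited values overlapped, but after scaling all mutant pools (8.52 to 10.7) lay above all WT pools (6.23 to 8.24). The log2 fold change was 0.47 and was not called (SE 0.16, limma with Benjamini-Hochberg adjustment, adjusted p = 0.148). mapk12b begins on the forward strand of chromosome 4 (5523690 to 5530441) shortly after the end of mapk11. It had 0.402, 0.546 and 0.366 FPKM in mutant pools, against 0.525, 0.966 and 0.605 FPKM in WT pools, with overlap (log2 fold change -0.36, SE 0.26, limma with Benjamini-Hochberg adjustment, adjusted p = 0.455). Its 12-exon transcript took 97.4% of this in mutant pools and 98.0% in WT pools, and its level was too low for the test of shares, which required a mean of 1 FPKM for the locus. Neither paralogue had an unnamed transcript.

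mapk14a encodes p38 alpha, the most widely expressed p38 kinase of mammals, and had the most unnamed transcripts of the 9 loci. It lies on the forward strand of chromosome 8 (23826985 to 23860719) with 3 named and 8 unnamed transcripts. The locus had 15.5, 14.9 and 17.3 FPKM in mutant pools, against 8.84, 9.21 and 11.9 FPKM in WT pools. All mutant pools lay above all WT pools, 1.59-fold on the deposited scale, with a log2 fold change of 0.90 (SE 0.15, limma with Benjamini-Hochberg adjustment, adjusted p = 0.0113) that stayed under the fold threshold. Without WT clutch 15 the value was 1.01 (adjusted p = 0.0158, limma) and was called, whereas without WT clutch 12 (0.83, adjusted p = 0.0576) and without WT clutch 13 (0.84, adjusted p = 0.0556) it no longer had an adjusted p below 0.05.

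Named and unnamed transcripts of mapk14a varied strongly between WT pools. The named transcripts had 1.59, 3.08 and 2.45 FPKM in mutant pools, against 5.02, 9.20 and 1.15 FPKM in WT pools. The unnamed transcripts had 13.9, 11.8 and 14.9 FPKM in mutant pools, against 3.82, 0.00493 and 10.8 FPKM in WT pools. Unnamed transcripts thus took 89.7, 79.3 and 85.9% of the locus in mutant pools and 43.3, 0.0536 and 90.3% in WT pools, and WT clutch 15 lay above all mutant pools (p = 0.4 by a two-sided exact permutation test). Neither the named transcripts (log2 fold change -0.49, SE 0.71, adjusted p = 0.712) nor the unnamed ones (3.23, SE 1.64, adjusted p = 0.371) were called by limma with Benjamini-Hochberg adjustment, and without WT clutch 13 the named value turned to 0.12. The unnamed value was 1.27 without WT clutch 13 and 4.54 without WT clutch 15.

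The mapk14a transcripts were split by length after their values were seen, and no test was made. The class of longer unnamed transcripts was found almost only in mutant pools. The 4 unnamed transcripts MSTRG.23209.3, MSTRG.23209.4, MSTRG.23209.5 and MSTRG.23209.8 are 150, 158, 238 and 230 nt longer than the 12-exon ENSDART00000187430 (2550 nt) once their ends are aligned. MSTRG.23209.3 and MSTRG.23209.4 have 12 exons, whereas MSTRG.23209.5 and MSTRG.23209.8 have 13, so this class is mixed in structure. Together these 4 transcripts had 10.0, 6.60 and 7.40 FPKM in mutant pools, against 0, 0.00493 and 0.0140 FPKM in WT pools. They took 64.8, 44.4 and 42.7% of the locus in mutant pools and 0, 0.0536 and 0.117% in WT pools. Each of the 4 reached the filter of 0.1 FPKM only through the mutant pools, so the direction of their sum was set by the filter. The other 4 unnamed transcripts, MSTRG.23209.1, MSTRG.23209.6, MSTRG.23209.7 and MSTRG.23209.9, have 13 exons and are 35 or 43 nt shorter than the annotated 12-exon form. They had 3.85, 5.18 and 7.49 FPKM in mutant pools, against 3.82, 0 and 10.8 FPKM in WT pools, and the groups overlapped. The annotated 12-exon transcripts ENSDART00000187430 and ENSDART00000040362 together had 1.49, 2.84 and 2.13 FPKM in mutant pools, against 4.95, 9.14 and 1.08 FPKM in WT pools. The variation between WT pools was therefore between the annotated and the slightly shorter transcripts, and MSTRG.23209.6 alone had 10.1 FPKM in WT clutch 15 and 0 FPKM in the other WT pools.

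**Figure D4:**
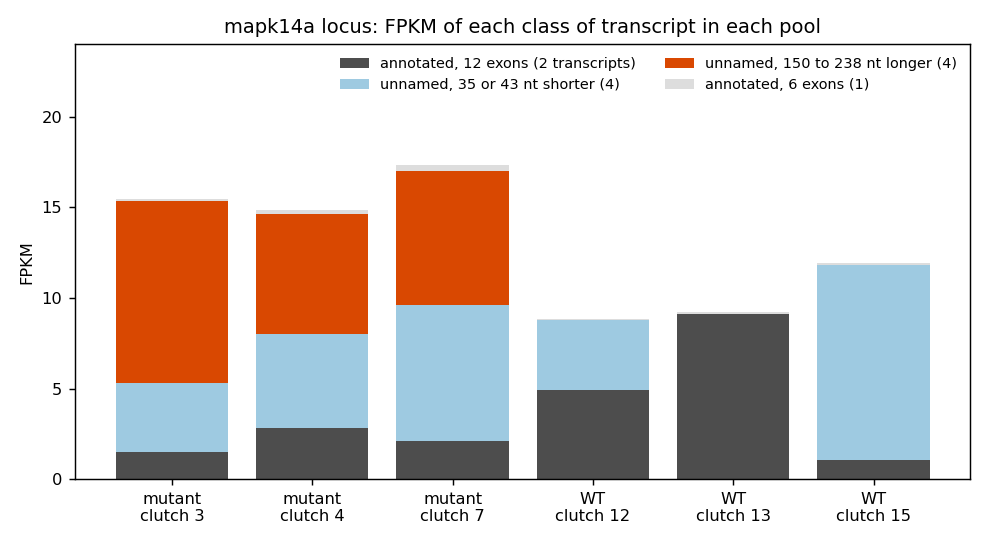
FPKM (vertical axis) of each class of mapk14a transcript, stacked, in 3 mutant pools (left) and 3 WT pools (right). The unnamed transcripts that are 150 to 238 nt longer than the annotated form (orange) reach 6.60 to 10.0 FPKM in mutant pools and at most 0.0140 FPKM in WT pools. This class holds transcripts of 12 and of 13 exons. It was formed after the values were seen, and each of its transcripts reached the filter of 0.1 FPKM only through the mutant pools.

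The longer transcripts of mapk14a were not called singly. MSTRG.23209.8 had 5.46, 4.35 and 1.05 FPKM in mutant pools, against 0, 0 and 0.000955 FPKM in WT pools, with a log2 ratio to the rest of the locus of 4.54 (SE 0.88, limma with Benjamini-Hochberg adjustment, adjusted p = 0.135). MSTRG.23209.3 had 1.09, 2.25 and 0.655 FPKM in mutant pools and was listed at 0 FPKM in all WT pools (log2 ratio 3.02, SE 0.65, limma with Benjamini-Hochberg adjustment, adjusted p = 0.182). Both were called with a pseudocount of 0.01 FPKM, at log2 ratios of 7.77 (adjusted p = 0.0402, limma) and 6.23 (adjusted p = 0.0429, limma), so that the size of these values depends on the pseudocount. Both reached the filter of 0.1 FPKM only through the mutant pools, so the direction of these tests was set by the filter. MSTRG.23209.4 and MSTRG.23209.5 were above 1 FPKM in mutant clutches 3 and 7 and at 0 FPKM in mutant clutch 4. Several of these transcripts differ by few bases. MSTRG.23209.5 and MSTRG.23209.8, with equal ends and exon number, differ by 8 nt, and both the pair MSTRG.23209.5 and MSTRG.23209.7 and the pair MSTRG.23209.8 and MSTRG.23209.6 differ by 273 nt. MSTRG.23209.7 and MSTRG.23209.9 have equal ends, exon number and length. Reads shared by such transcripts are divided between them by estimation.

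mapk14b, the paralogue of mapk14a, lies on the forward strand of chromosome 11 (2710530 to 2760373) and has 5 named transcripts and no unnamed one. It had 1.85, 2.49 and 2.74 FPKM in mutant pools, against 2.56, 3.31 and 3.29 FPKM in WT pools, with overlap (log2 fold change -0.15, SE 0.17, limma with Benjamini-Hochberg adjustment, adjusted p = 0.619). Nearly all of it came from a pair of 12-exon transcripts that end at the same base. ENSDART00000030921 begins 22 bases before ENSDART00000040147, and apart from these bases their lengths are equal. Reads that the pair share are divided by estimation, so the split between them is uncertain. ENSDART00000030921 (4174 nt) had 0.490, 0.769 and 0.436 FPKM in mutant pools, against 0.963, 1.53 and 1.73 FPKM in WT pools, and its share was 24.4 ± 7.66% in mutant pools and 45.4 ± 7.43% in WT pools. ENSDART00000040147 (4152 nt) had 1.32, 1.62 and 2.15 FPKM in mutant pools, against 1.50, 1.65 and 1.48 FPKM in WT pools, and its share was 71.7 ± 6.71% in mutant pools and 51.2 ± 6.87% in WT pools. The groups did not overlap for either share, and neither log2 ratio, -1.28 (SE 0.47, adjusted p = 0.455) and 1.19 (SE 0.41, adjusted p = 0.418), was called by limma with Benjamini-Hochberg adjustment. Of the paralogue pairs, mapk8a and mapk14a had unnamed transcripts and higher levels of the locus in every mutant pool than in any WT pool, while mapk14b overlapped and mapk8b was higher without any unnamed transcript. In the pair mapk12a and mapk12b, without unnamed transcripts, the deposited values overlapped. After scaling, mapk12a but not mapk12b was higher in every mutant pool. The pairs are set side by side as a description, without a test.

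**Figure D5:**
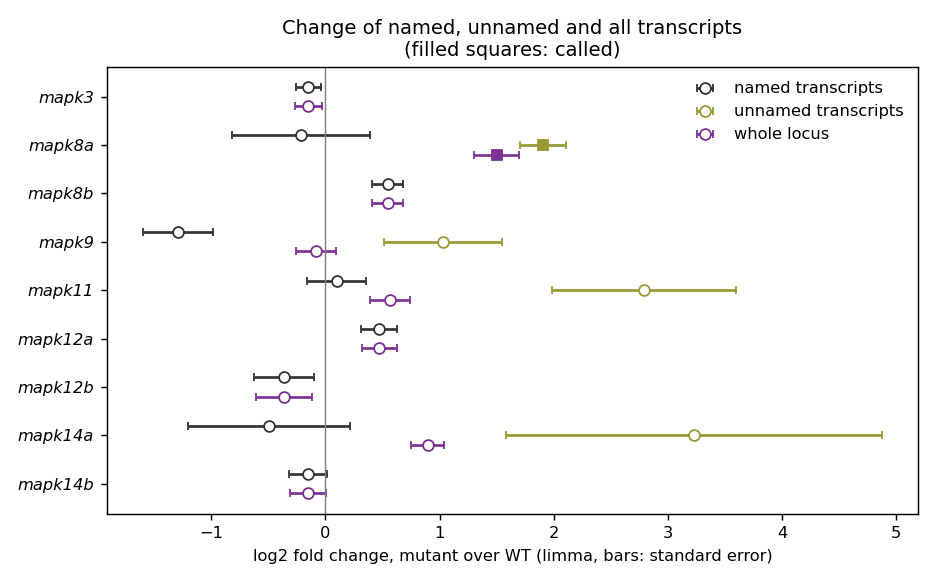
Log2 fold change, mutant over WT (horizontal axis, limma, bars show the standard error), of the named transcripts, the unnamed transcripts and the whole locus of each MAP kinase gene. Filled squares, for the unnamed transcripts and the locus of mapk8a at 1.91 and 1.50, mark values that were called, and no value of named transcripts was.

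Of the 45 transcripts, 35 had a mean of at least 0.1 FPKM and 33 of these entered the test of shares, of which 15 had an unadjusted p under 0.05 and 1 was called. Over all transcripts tested, 10.4% had an unadjusted p under 0.05. Several of the 15 reached the filter of 0.1 FPKM only through the mutant pools, so the direction of their tests was set by the filter. These were ENSDART00000134342, ENSDART00000145213, ENSDART00000139973, MSTRG.17706.1, MSTRG.23209.3 and MSTRG.23209.8. The members were also chosen with earlier results of these data known. The share of the 33 therefore cannot be read as a difference from other transcripts. The 2 transcripts of mapk3 share 1 ratio, and other transcripts of 1 locus are likewise not independent of each other. At mapk8a, mapk11 and mapk14a, different transcripts were above 0 FPKM in different mutant clutches.

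The other genes of the cascade were compared on their named transcripts, in lists drawn up from their known roles. Earlier results of these data were known when the lists were chosen, so their counts are a description and not a test. Over all genes tested 2.8% were called, and 0 of the 8 MAP kinase kinases tested. Their median log2 fold change was 0.16, beside 0.01 over all genes tested. Among 24 MAP kinase kinase kinases 1 was called, which cannot be told apart from the share of 2.8% over all genes. This was araf, which encodes a Raf kinase of the ERK branch. araf had 0.627, 1.47 and 1.14 FPKM in mutant pools, against 0.274, 0.335 and 0.103 FPKM in WT pools. It rose by a log2 fold change of 1.98 (SE 0.38, limma with Benjamini-Hochberg adjustment, adjusted p = 0.0469), and its locus by 1.07 (adjusted p = 0.0174, limma). Of 8 scaffold proteins, 9 phosphatases of MAP kinases and 11 kinases activated by MAP kinases, 0 were called, with medians of -0.20, 0.22 and 0.33.

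Transcription factors and response genes downstream of MAP kinases included called genes. Of 27 tested, 4 were called higher and 1 lower, beside 0.887% of all genes tested called higher and 1.91% called lower. Since the list was chosen with earlier results of these data known, these counts cannot be read as a difference from other genes. The median log2 fold change was 0.33, with 20 genes higher and 7 lower, most of them not called. fosab, an immediate early gene that pairs with Jun proteins, had 5.60, 2.58 and 3.88 FPKM in mutant pools, against 0.737, 0.271 and 0.806 FPKM in WT pools (log2 fold change 2.79, SE 0.45, limma with Benjamini-Hochberg adjustment, adjusted p = 0.0311). fosl1a, which encodes another Fos family factor, had 1.45, 0.857 and 0.949 FPKM in mutant pools, against 0.253, 0.230 and 0.213 FPKM in WT pools (1.99, SE 0.27, limma with Benjamini-Hochberg adjustment, adjusted p = 0.0211). atf3, a stress-induced factor, had 1.53, 2.07 and 1.82 FPKM in mutant pools, against 0.592, 0.729 and 0.599 FPKM in WT pools (1.56, SE 0.16, limma with Benjamini-Hochberg adjustment, adjusted p = 0.0107). The fourth, the immediate early gene ier2a, named after its values were seen, had 8.18, 6.52 and 7.02 FPKM in mutant pools, against 3.74, 3.72 and 3.57 FPKM in WT pools (1.17, SE 0.16, limma with Benjamini-Hochberg adjustment, adjusted p = 0.0216). For each of these 4 genes every mutant pool lay above every WT pool. mef2aa, which encodes a muscle transcription factor that p38 kinases phosphorylate in mammals, had 0.248, 0.611 and 0.277 FPKM on its named transcripts in mutant pools, against 1.52, 1.39 and 1.19 FPKM in WT pools. Its named transcripts fell (log2 fold change -1.50, SE 0.29, limma with Benjamini-Hochberg adjustment, adjusted p = 0.0492), but its locus did not pass the test (-0.04, adjusted p = 0.907, limma). The values measure RNA, sequenced as total RNA, and neither protein nor the activity of the kinases was measured.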

How the data were processed

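Bodies of 3 dpf zebrafish embryos were pooled by 10, and total RNA was sequenced with a stranded kit. According to the study's methods, reads were filtered, mapped by HISAT2 2.2.1.0 on the GRCz11 genome, sorted with sambamba and assembled with StringTie 2.0.3 on Ensembl annotation. FPKM values were deposited by the authors per transcript, corrected for length and mapped fragments. The coverage values, deposited by the authors as mean depth per transcript, were used only for depth and for an alternative share. Read counts were not used, so the counting error of a value is unknown.

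FPKM was summed over named, unnamed or all transcripts of a locus, divided by median-of-ratios factors (0.852 to 0.973 in mutant pools, 1.06 to 1.10 in WT pools) and compared as log2(FPKM + 0.1) in R 4.3.3 using limma 3.58.1 (mean trend in eBayes, Benjamini-Hochberg adjustment, no covariate, all 6 pools). Features needed a mean of 0.1 FPKM, and ratios and shares also 1 FPKM for the locus. Single shares were compared by two-sided exact permutation tests. Scripts were tested on simulated data. Python 3.11.15, pandas 2.3.3, numpy 2.4.6, scipy 1.17.1 and matplotlib 3.10.9 were used.

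All 9 members, their transcripts with a mean of at least 0.1 FPKM and up to 4 called genes of each list could be named. Members and lists were chosen with earlier results of these data known. Alternatives were other pseudocounts, filters, no scaling, no mean trend, shares from coverage, and leaving out each pool. A list of further MAP kinases is not reported here.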

Additional observations from a re-analysis of the deposited data

How the results depend on the processing

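Over all genes, 565 were called on named transcripts, 280 with a pseudocount of 1 FPKM, 902 without scaling (773 of them lower, against 386 of 565 with it) and 91 to 509 without single pools. Without scaling the median over all genes moved to -0.19 (log2). For whole loci 932 were called, 379 with a pseudocount of 1 FPKM, 598 with a filter 10 times higher, 1205 without scaling (989 of them lower, against 566 of 932) and 495 to 987 without single pools. For unnamed transcripts 2.12% of 6079 loci were called, and 49 to 96 loci without single pools. For the ratio of unnamed to named transcripts 43 were called, 22 with the higher filter and 4 to 31 without single pools. For transcript shares 206 were called, 66 with the higher filter and 19 to 135 without single pools. The lowest counts came without WT clutch 12 or 13 or, for unnamed transcripts, mutant clutch 7, and the cause was not tested. The MAP kinase values followed were those of genes, loci and ratios, the 15 transcript shares with an unadjusted p under 0.05, and 4 unnamed shares, which have no threshold. Of these, 261 kept direction and side of the threshold without single pools, 5 reversed, 2 gained and 2 lost a call. Under the other settings 222 kept both, 1 reversed, 6 gained and 1 lost a call. Reversed values, all uncalled, were mapk11 named transcripts (-0.12 without scaling, -0.15 without mutant clutch 3, -0.0054 without WT clutch 12, range -0.15 to 0.32 without single pools), mapk14a named transcripts (0.12 without WT clutch 13, range -1.33 to 0.12), mapk8a named transcripts (0.45 without mutant clutch 7, range -0.84 to 0.45) and the mapk9 locus (0.068 without mutant clutch 3, range -0.20 to 0.068). No paired analysis was possible because no clutch gave both genotypes and the clutch numbers are not shared between them. Transcripts under 1 FPKM rest on few fragments, and how reads were divided between similar transcripts was not recomputed.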

Other observations

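The named genes whose level was most like that of each member over the 6 pools are given as a description, since all points share library, scaling and genotype. By Pearson's r of log2 FPKM they were sdhaf4 for mapk3 (0.993), ckmt1 for mapk8a (0.991), nfil3 for mapk8b (0.997), ciapin1 for mapk9 (0.997), pccb for mapk11 (0.999), cabcoco1 for mapk12a (0.995), btr16 for mapk12b (0.986), si:ch73-383l1.1 for mapk14a (0.998) and tm7sf2 for mapk14b (0.983). Between 16 and 204 genes reached 0.95 with each member, so that the gene named is the first of many over 6 pools.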
